A study of Mus musculus with 8 samples.

Results

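The alcohol and aldehyde dehydrogenases described here are 10 genes, chosen by name among the 24940 genes of a table of liver read counts. They are 4 alcohol dehydrogenases (*Adh1*, *Adh4*, *Adh5* and *Adh7*) and 6 aldehyde dehydrogenases (*Aldh2*, *Aldh1b1*, *Aldh1a7*, *Aldh1l1*, *Aldh3a2* and *Aldh8a1*), and all 10 passed the filter on low counts. RNA-seq was done on whole liver of 8 C57BL/6 males. The 4 FXRKO males carried floxed *Bcl6* without Cre (Bcl6(fl/fl)) and lacked *Fxr* in the whole body (labelled FXR(homo)). The 4 BCL6LKOFXRKO males carried the same 2 alleles plus Alb-Cre, a Cre driven by the albumin promoter, so that *Bcl6* was deleted in hepatocytes. Both groups therefore lack *Fxr*, the bile acid receptor gene *Nr1h4*, and the presence of Cre cannot be told apart from the loss of *Bcl6*. Age is not given in the sources used here. Within each genotype the livers are numbered 1 to 4 only as names.

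Alcohol dehydrogenases oxidise alcohols such as ethanol and retinol to aldehydes, and aldehyde dehydrogenases oxidise aldehydes on to acids. In the liver the pair of steps turns ethanol into acetaldehyde in the cytosol and acetaldehyde into acetate, mainly in mitochondria. Other members of the families handle formaldehyde, folate-bound one-carbon units, fatty aldehydes and a semialdehyde of tryptophan breakdown. BCL6 is a transcriptional repressor, and the comparison asks how these genes differed when hepatocytes without *Fxr* also lost *Bcl6*.

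The libraries held between 7586241 and 11839503 counts on genes. *Bcl6* was at 49.6 ± 19.4 CPM (counts scaled to library size) in FXRKO livers and 7.44 ± 3.24 CPM in BCL6LKOFXRKO livers (SD, n = 4 each). Each BCL6LKOFXRKO liver was below each FXRKO liver. FXRKO liver 3 was low, at 21.2 CPM beside 55.6 to 65.2 CPM in the other FXRKO livers, and the highest BCL6LKOFXRKO liver was at 11.9 CPM. *Nr1h4* reads were counted in both genotypes, at 60.0 ± 2.46 and 43.5 ± 3.69 CPM, and the deleted part of the gene was not looked at here. The 50 most counted genes took 29.8% to 31.2% of the counts in FXRKO livers and 40.7% to 44.1% in BCL6LKOFXRKO livers, with *Alb* alone at 4.04% to 5.16% and 11.9% to 13.2%. For this reason CPM were scaled with TMM factors (edgeR's trimmed mean of M-values), and scaling to total counts instead shifted the log2 fold changes of all genes by a median of -0.16. Of all called genes, 54.5% were higher in BCL6LKOFXRKO livers with TMM and 32.3% with total counts alone. Of the hepatocyte marker list, 9 of 10 symbols were in the table and none was at 0. This does not by itself identify the tissue, because markers of other cells were counted too. By the rule given below *Alb* was called higher (log2 fold change 1.60), *Ttr* (-0.76) and *Apob* (-0.45) were called lower, and 6 were not called. With total counts alone 3 were lower.

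Among the 10 genes, *Aldh1b1* and *Aldh1a7* were several fold higher and *Adh4* was at 0.413 times the FXRKO level in BCL6LKOFXRKO livers, while *Adh1* was slightly higher and the low gene *Adh7* slightly lower. Calls were made where the quasi-likelihood p of edgeR, adjusted over all 12340 tested genes (Benjamini-Hochberg), was under 0.05. By this rule 5 of the 10 genes were called, where 29.7% of all tested genes were called. Of the 10, 3 were higher and 2 lower, beside 16.2% and 13.5% of all tested genes. Groups that did not overlap were seen for 3 higher genes (16.1% of all tested genes) and 3 lower ones (15.2%), the latter with *Aldh8a1*, which was not called. The median log2 fold change of the 10 genes was -0.16, beside 0.01 over all tested genes. The range of responses was wide, from a log2 fold change of 2.22 to one of -1.28.

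**Figure D1:**
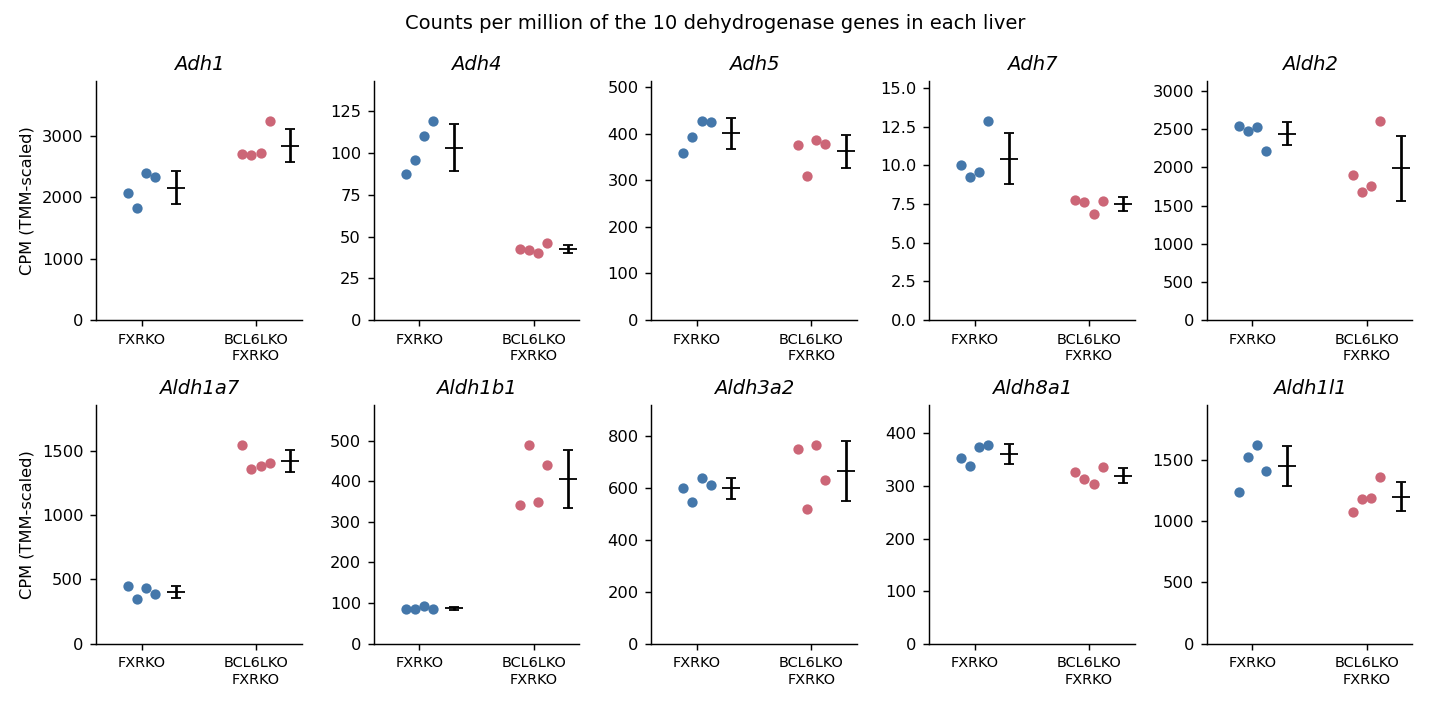
CPM of each of the 10 genes (y axis, TMM-scaled, from 0) in the 4 FXRKO and 4 BCL6LKOFXRKO livers; points are livers and the bars beside them give the mean and SD. The groups are far apart for *Aldh1a7*, *Aldh1b1* and *Adh4* and overlap for *Adh5*, *Aldh2*, *Aldh3a2* and *Aldh1l1*.

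The 250 bases before the RefSeq start of the 3 genes that differed most are shown here because these genes carry the main difference, 2 of them upward and 1 downward. They are on build GRCm38.p6 (mm10), written 5′ to 3′ on the strand of the gene: *Aldh1b1* at chr4:45798772-45799021 on the plus strand, *Aldh1a7* at chr19:20727557-20727806 on the minus strand and *Adh4* at chr3:138415247-138415496 on the plus strand. Capitals mark TATAAA (the letters of a core promoter element) or AGGTCA (the hexamer that many nuclear receptors bind) on either strand. Matches are marked at any distance from the start within the window.
Aldh1b1: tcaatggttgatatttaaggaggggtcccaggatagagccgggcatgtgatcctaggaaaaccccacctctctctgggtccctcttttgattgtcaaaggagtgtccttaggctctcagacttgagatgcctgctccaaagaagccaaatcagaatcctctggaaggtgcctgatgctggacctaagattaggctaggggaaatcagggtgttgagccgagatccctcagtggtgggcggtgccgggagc
Aldh1a7: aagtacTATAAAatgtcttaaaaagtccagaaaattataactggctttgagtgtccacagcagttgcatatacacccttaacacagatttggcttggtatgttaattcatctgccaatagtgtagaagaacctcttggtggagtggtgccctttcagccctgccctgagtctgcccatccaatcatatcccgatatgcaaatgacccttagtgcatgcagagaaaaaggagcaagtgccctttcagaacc
Adh4: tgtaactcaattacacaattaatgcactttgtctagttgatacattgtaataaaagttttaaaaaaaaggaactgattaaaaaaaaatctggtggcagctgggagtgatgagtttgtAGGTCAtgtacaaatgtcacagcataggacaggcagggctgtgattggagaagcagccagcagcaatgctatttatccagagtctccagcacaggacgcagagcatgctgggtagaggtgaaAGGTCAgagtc
The *Adh4* sequence held AGGTCA at 2 places, 133 and 11 bases before the start, and the *Aldh1a7* sequence held TATAAA 244 bases before it. Among the other genes, AGGTCA was also in *Aldh1l1* (178 bases before the start), and TATAAA in *Adh7* (202 bases) and in 1 of the 2 entries of *Adh5* (207 bases), none of them shown. The *Aldh1b1* sequence held neither. AGGTCA was added to the search after the sequences had been seen. Of 32851 promoter windows of this length, 14.0% held AGGTCA and 12.4% held TATAAA. The palindrome TTCNNNGAA, a core shared by STAT5 and BCL6 sites, was in 7.02% of windows and in none of the 3 shown. Among the 9 of the 10 genes with an entry, only *Aldh8a1* had it, and *Aldh2* had no entry. These are matches of letters in short windows and were not tested as binding sites.

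*Aldh1b1* encodes a mitochondrial aldehyde dehydrogenase that accepts acetaldehyde and other aldehydes and is related to ALDH2. The gene spans chromosome 4 from 45799022 to 45804608 on the plus strand (NM_028270) and has 2 exons. In FXRKO livers 1 to 4 *Aldh1b1* was at 85.5, 85.1, 92.1 and 84.6 CPM, and in BCL6LKOFXRKO livers 1 to 4 it was at 341.6, 490.0, 349.1 and 439.0 CPM. The FXRKO livers were nearly alike, the BCL6LKOFXRKO livers varied more, and the groups did not overlap, as for 31.3% of all tested genes in either direction. The log2 fold change of *Aldh1b1* was 2.22 (standard error 0.14, edgeR adjusted p = 1.19e-07), a 4.66-fold higher level with a 95% interval from 3.80-fold to 5.72-fold. The exact two-sided permutation test on CPM gave p = 0.0286, the smallest that 4 against 4 livers can give. Its size of change was at the 97.3 percentile of all tested genes. In whole tissue, more cells of a type and more RNA per cell cannot be told apart.

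*Aldh1a7*, a rodent cytosolic enzyme and close paralog of the retinal-oxidising ALDH1A1, lies on chromosome 19 from 20692953 to 20727556 on the minus strand (NM_011921, 13 exons). In FXRKO livers 1 to 4 *Aldh1a7* was at 446.3, 345.6, 434.2 and 384.6 CPM, and in BCL6LKOFXRKO livers 1 to 4 at 1547, 1356, 1384 and 1402 CPM. Every BCL6LKOFXRKO liver was far above every FXRKO liver, with little spread on either side. The log2 fold change of *Aldh1a7* was 1.82 (standard error 0.12, edgeR adjusted p = 3.29e-07), a 3.53-fold higher level with a 95% interval from 2.93-fold to 4.26-fold (exact permutation p = 0.0286).

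*Aldh1a1* is the neighbour of *Aldh1a7*, 49.5 kb away on the opposite strand, and its coding sequence is 91.6% identical. *Aldh1a1* was at 1924, 1678, 1923 and 2234 CPM in FXRKO livers 1 to 4 and at 2156, 1287, 2267 and 2139 CPM in BCL6LKOFXRKO livers 1 to 4. The groups overlapped, and *Aldh1a1* differed by 0.02 on the log2 scale with a 95% interval from -0.36 to 0.39 (edgeR adjusted p = 0.953), below the interval of *Aldh1a7* from 1.55 to 2.09. Of 1967 read-length windows of 100 bases along the *Aldh1a7* transcript, 1 was found unchanged in *Aldh1a1*, and 18.9% matched *Aldh1a1* with at most 4 mismatches, the number that the authors' alignment allowed. No window of the other 9 genes came that close to another gene of the 2 families. Outside the families, 12 windows of *Adh7*, 31 of *Aldh2* and 11 of *Aldh1l1*, each under 1% of the transcript, were found unchanged in another gene. In each case it was the gene that overlaps the exons on the opposite strand.

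*Adh1* encodes the class I alcohol dehydrogenase, the main ethanol-oxidising enzyme of the liver cytosol. The gene spans chromosome 3 from 138277585 to 138290697 (NM_007409), and a gene on the opposite strand overlaps 9.12% of its exonic bases. *Adh1* was at 2068, 1819, 2405 and 2340 CPM in FXRKO livers 1 to 4, and in BCL6LKOFXRKO livers 1 to 4 at 2709, 2684, 2725 and 3248 CPM. The groups did not overlap, although the gap between the highest FXRKO and the lowest BCL6LKOFXRKO liver was small. The log2 fold change of *Adh1* was 0.40 (standard error 0.13, edgeR adjusted p = 0.0380), a 1.32-fold higher level with a 95% interval from 1.08-fold to 1.60-fold (exact permutation p = 0.0286). The call was near its threshold. It was lost with total counts alone (log2 fold change 0.24, adjusted p = 0.184) and without any 1 of FXRKO livers 1, 2 and 4 or BCL6LKOFXRKO livers 1, 3 and 4, with adjusted p from 0.0527 to 0.124 in these 6 edgeR fits.

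*Adh4* encodes the class II enzyme, found mainly in liver, which oxidises ethanol at high concentrations and other alcohols. On chromosome 3 it occupies 138415497 to 138430892 (NM_011996). In FXRKO livers 1 to 4 *Adh4* was at 87.6, 95.7, 110.2 and 119.3 CPM, and in BCL6LKOFXRKO livers 1 to 4 at 42.7, 41.7, 40.1 and 45.9 CPM. All 4 BCL6LKOFXRKO livers were close together and below the FXRKO livers. *Adh4* had a fitted log2 fold change of -1.28 (standard error 0.12, edgeR adjusted p = 5.91e-06), a level 0.413 times that of FXRKO livers with a 95% interval from 0.346 to 0.494 (exact permutation p = 0.0286).

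*Adh7* encodes the class IV enzyme, known from the epithelium of the stomach and oesophagus, and was the lowest of the 10 genes, with 63 to 136 counts per liver. On chromosome 3 it occupies 138217773 to 138232042 (NM_009626). Its values were 9.99, 9.25, 9.57 and 12.9 CPM in FXRKO livers 1 to 4, and in BCL6LKOFXRKO livers 1 to 4 they were 7.76, 7.65, 6.82 and 7.72 CPM. FXRKO liver 4 was the highest, and no liver of one genotype reached the range of the other. The log2 fold change of *Adh7* was -0.48 (standard error 0.16, 95% interval from -0.83 to -0.14, edgeR adjusted p = 0.0378, exact permutation p = 0.0286). Without any 1 of FXRKO livers 1, 3 and 4 or BCL6LKOFXRKO livers 1, 2 and 3, *Adh7* was not called, with adjusted p from 0.0540 to 0.131 in these edgeR fits. Of 10 stomach and oesophagus epithelium markers, *Krt13*, *Krt14*, *Gkn1* and *Gkn2* were at 0 in all livers. The sum of all 10 was 2.0 to 3.44 CPM in FXRKO and 5.74 to 13.8 CPM in BCL6LKOFXRKO livers. Only 2 of them passed the filter on low counts. *Atp4a* was at 0.408 ± 0.256 CPM in FXRKO and 5.27 ± 3.49 CPM in BCL6LKOFXRKO livers and was called higher. *Tff1* was at 2.18 ± 0.833 and 3.62 ± 1.22 CPM and was not called. The part of these markers in the *Adh7* values was not tested.

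*Adh5* encodes the class III enzyme, the glutathione-dependent formaldehyde dehydrogenase that nearly all cells use. The gene spans chromosome 3 from 138443093 to 138455499 (NM_007410). *Adh5* was at 358.0, 392.1, 427.7 and 425.4 CPM in FXRKO livers 1 to 4, and in BCL6LKOFXRKO livers 1 to 4 at 375.9, 310.2, 385.9 and 377.3 CPM. The ranges overlapped, with BCL6LKOFXRKO liver 2 the lowest of all. On the log2 scale *Adh5* differed by -0.15 with a 95% interval from -0.40 to 0.11 (edgeR adjusted p = 0.373, exact permutation p = 0.20).

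The 4 *Adh* genes lie in a row on the plus strand of chromosome 3, in the order *Adh7*, *Adh1*, *Adh4*, *Adh5*, within 237.7 kb. Along this row a slightly higher gene (*Adh1*) stood between 2 lower ones (*Adh7* and *Adh4*), and the last (*Adh5*) was not called. Their coding sequences were 61.6% to 68.7% identical in pairs, and no 100-base window was shared between them.

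*Aldh2* encodes the mitochondrial enzyme that oxidises most acetaldehyde. It is on chromosome 5 from 121566027 to 121593824 on the minus strand (NM_009656). *Aldh2* was at 2540, 2472, 2532 and 2217 CPM in FXRKO livers 1 to 4, and in BCL6LKOFXRKO livers 1 to 4 at 1901, 1680, 1756 and 2610 CPM. In 3 of the 4 BCL6LKOFXRKO livers *Aldh2* was below all FXRKO livers, while liver 4 was above them. On the log2 scale *Aldh2* differed by -0.30 with a 95% interval from -0.62 to 0.03 (edgeR adjusted p = 0.154, exact permutation p = 0.14). Without BCL6LKOFXRKO liver 4 it was -0.46 with an adjusted p of 0.0104, and with total counts alone -0.46 with an adjusted p of 0.0308.

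*Aldh1l1* encodes the cytosolic formyltetrahydrofolate dehydrogenase, which releases one-carbon units from folate as carbon dioxide. It is on chromosome 6 from 90550793 to 90599171 (NM_027406). *Aldh1l1* was at 1240, 1521, 1624 and 1407 CPM in FXRKO livers 1 to 4, and in BCL6LKOFXRKO livers 1 to 4 at 1072, 1180, 1185 and 1359 CPM. Only BCL6LKOFXRKO liver 4 reached into the FXRKO range. The difference in *Aldh1l1* was -0.27 on the log2 scale with a 95% interval from -0.55 to 0.01 (edgeR adjusted p = 0.129, exact permutation p = 0.057), and with total counts alone it was called at -0.43 (adjusted p = 0.0200).

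*Aldh8a1* encodes the cytosolic enzyme that oxidises aminomuconate semialdehyde in the kynurenine pathway of tryptophan breakdown. It is on chromosome 10 from 21377300 to 21396578 (NM_178713). In FXRKO livers 1 to 4 *Aldh8a1* was at 353.4, 338.1, 374.0 and 378.7 CPM, and in BCL6LKOFXRKO livers 1 to 4 at 326.1, 314.0, 302.8 and 335.8 CPM. The groups just failed to overlap, with the exact permutation p at 0.0286, but *Aldh8a1* was not called across all genes (log2 fold change -0.18, 95% interval from -0.40 to 0.05, edgeR adjusted p = 0.218). With total counts alone *Aldh8a1* was at -0.34 and called (adjusted p = 0.0265).

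*Aldh3a2* encodes the fatty aldehyde dehydrogenase of the endoplasmic reticulum, which oxidises long-chain aldehydes from sphingolipid, ether lipid and phytol breakdown. It is on chromosome 11 from 61244752 to 61267186 on the minus strand (NM_001331114). *Aldh3a2* was at 599.7, 544.7, 638.0 and 610.0 CPM in FXRKO livers 1 to 4, and in BCL6LKOFXRKO livers 1 to 4 at 751.2, 519.9, 767.3 and 629.9 CPM. The BCL6LKOFXRKO livers lay on both sides of the FXRKO range. The difference in *Aldh3a2* was 0.16 on the log2 scale with a 95% interval from -0.14 to 0.45 (edgeR adjusted p = 0.414, exact permutation p = 0.31).

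**Figure D2:**
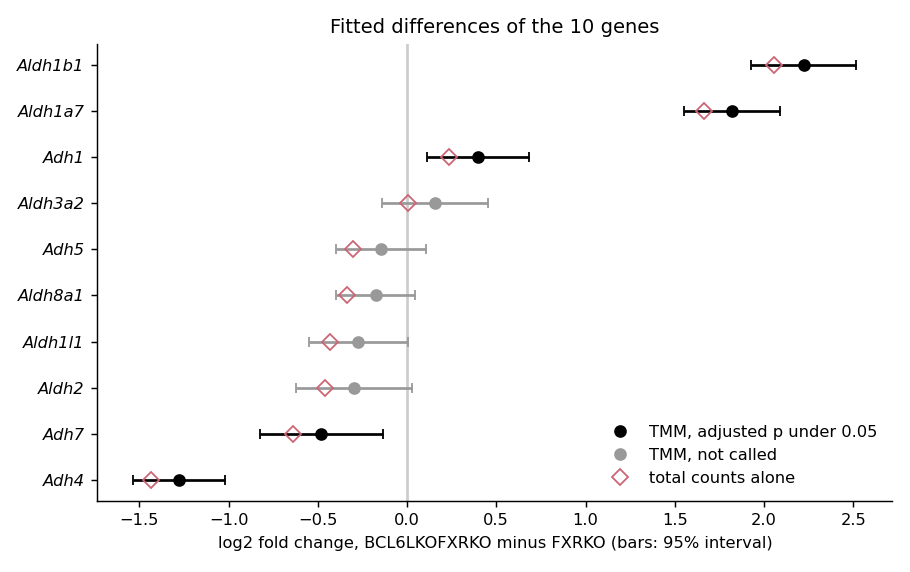
Fitted log2 fold changes (x axis, BCL6LKOFXRKO minus FXRKO) of the 10 genes, with 95% intervals; black points were called, grey ones were not, and open diamonds give the fit with total counts alone. *Aldh1b1* and *Aldh1a7* lie far to the right and *Adh4* to the left, and every diamond is to the left of its point.

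The 10 genes together held 0.804% to 0.919% of the counts in FXRKO livers and 0.772% to 0.972% in BCL6LKOFXRKO livers, and these ranges overlapped. In TMM-scaled CPM the 4 *Adh* genes summed to 2673 ± 304 and 3254 ± 288 (SD, n = 4 each), and the 6 *Aldh* genes to 5337 ± 258 and 5999.5 ± 542. The sums of the 4 *Adh* genes ran from 2316 to 2953 CPM and from 3043 to 3679 CPM, and most of each was *Adh1*. Those of the 6 *Aldh* genes ran from 5081 to 5694 CPM and from 5540 to 6775 CPM, which overlapped. The sums of all 10 genes also overlapped, at 7622 to 8647 CPM and 8583 to 10454 CPM.

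Levels of different genes were compared as RPKM, CPM per kilobase of transcript. *Adh1* was the highest in both genotypes, at 1554 ± 194 RPKM in FXRKO and 2046 ± 195 RPKM in BCL6LKOFXRKO livers (SD, n = 4 each). In FXRKO livers *Aldh2* (633 ± 39.4 RPKM), *Aldh1l1* (465 ± 52.9) and *Adh5* (252 ± 20.6) followed, each clear of its neighbour. *Aldh1a7* was the fifth, at 197 ± 22.7 RPKM and overlapped with *Aldh3a2* (182 ± 11.9), which overlapped with *Aldh8a1* (162 ± 8.43). *Adh4* (79.3 ± 10.9), *Aldh1b1* (37.8 ± 1.54) and *Adh7* (5.04 ± 0.803) were lower and apart from each other.

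In BCL6LKOFXRKO livers *Aldh1a7* was the second, at 695 ± 41.8 RPKM, with a range that overlapped *Aldh2* (516 ± 110). *Aldh1b1* was the seventh, at 176 ± 31.3 RPKM, not separable from *Aldh3a2* (203 ± 35.1) above it or *Aldh8a1* (143 ± 6.42) below it. *Adh4* was the ninth, at 32.8 ± 1.88 RPKM. The aldehyde dehydrogenases thus changed order, while *Adh1* and *Adh7* kept the ends.

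**Figure D3:**
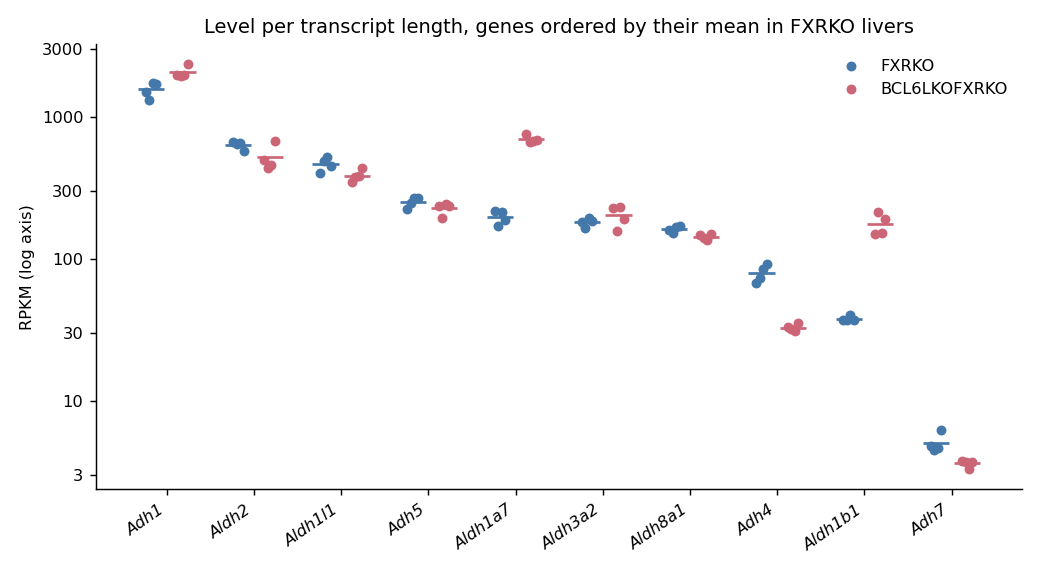
RPKM (y axis, log scale) of the 10 genes, ordered by their mean in FXRKO livers; points are livers and lines are means of 4 livers. *Aldh1a7* and *Aldh1b1* leave the downward order in BCL6LKOFXRKO livers.

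Ratios of 2 genes within a liver do not depend on how libraries were scaled, and they are given as a description. The *Aldh1b1* to *Aldh2* ratio of RPKM, both mitochondrial enzymes, was 0.0565, 0.0577, 0.0610 and 0.0640 in FXRKO livers 1 to 4 and 0.301, 0.489, 0.333 and 0.282 in BCL6LKOFXRKO livers 1 to 4. Thus *Aldh1b1* was a small fraction of *Aldh2* in all FXRKO livers and a larger one in all BCL6LKOFXRKO livers. The *Aldh1a7* to *Aldh1a1* ratio was 0.304 ± 0.0392 in FXRKO and 1.10 ± 0.293 in BCL6LKOFXRKO livers (SD, n = 4 each). The *Adh1* to *Adh4* ratio was 19.7 ± 1.98 and 62.4 ± 3.14, and *Adh1* made up 82.2 ± 1.41% and 88.5 ± 0.982% of the summed RPKM of the 4 *Adh* genes.

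**Figure D4:**
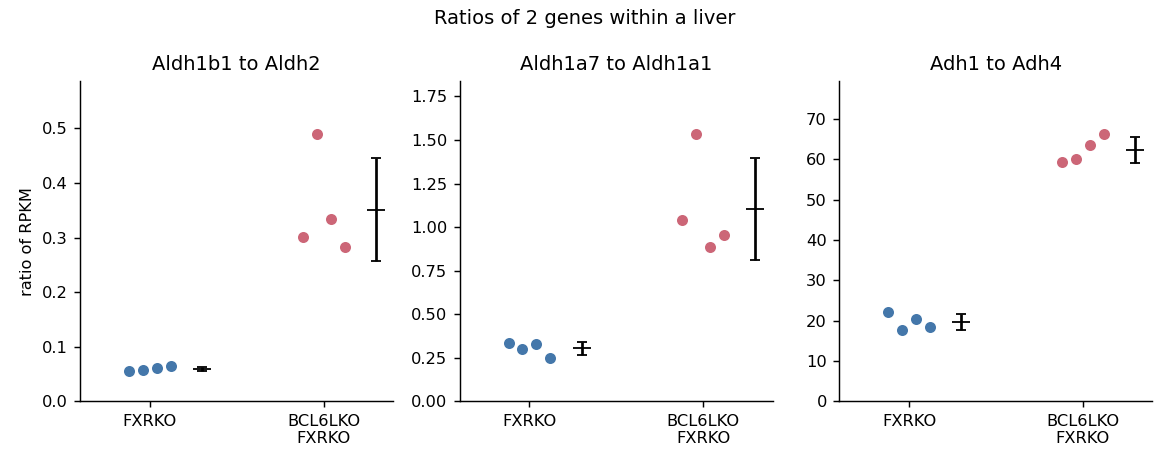
Ratios of RPKM of 2 genes within each liver (y axes from 0); points are livers and bars give the mean and SD of 4 livers. All 3 ratios were higher in each BCL6LKOFXRKO liver than in any FXRKO liver, and BCL6LKOFXRKO liver 2 was the highest for both *Aldh* ratios.

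Of 18 other *Adh* and *Aldh* genes listed, 17 were in the table and 11 were tested, with 3 called higher, 3 called lower and a median log2 fold change of 0.02. With total counts alone 3 were higher and 5 lower, with a median of -0.13. *Aldh18a1*, a proline synthesis enzyme, rose from 2.25 ± 0.851 to 9.29 ± 1.33 CPM (log2 fold change 2.04, edgeR adjusted p = 6.09e-05), and *Aldh3b1* rose by 1.30 on the log2 scale (edgeR adjusted p = 0.00316). *Adhfe1*, which oxidises hydroxybutyrate, *Aldh5a1*, the succinate semialdehyde dehydrogenase, and *Aldh6a1*, of valine breakdown, fell by 0.87, 0.73 and 0.78 on the log2 scale.

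Ethanol is also oxidised by CYP2E1 in the endoplasmic reticulum and by catalase in peroxisomes, and both genes were lower. *Cyp2e1* fell from 10677 ± 1730 to 2819 ± 575 CPM (SD, n = 4 each), or -1.92 on the log2 scale (standard error 0.17, edgeR adjusted p = 4.45e-06). *Cat* fell from 3580 ± 398 to 1770 ± 200 CPM, or -1.02 on the log2 scale (edgeR adjusted p = 0.00011). Of the acetate enzymes, *Acss3* rose by 1.05 on the log2 scale and *Acot12* fell by 0.58. *Acss2* (0.38, edgeR adjusted p = 0.0458) was not called with total counts alone (0.23) or without the 50 most counted genes in normalization (0.36). Of the 6 tested genes of this list 2 were called higher and 3 lower, and the middle of their log2 fold changes (median) was -0.10. With total counts alone 1 was higher and the median was -0.26.

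Of 21 tested aldo-keto and carbonyl reductases and lipid aldehyde genes, some of which reduce or conjugate aldehydes, 5 were called higher and 6 lower. The middle of their log2 fold changes (median) was 0.19. With total counts alone 7 were lower and the median was 0.03. *Cbr1*, a carbonyl reductase, rose from 45.1 ± 3.17 to 126 ± 21.4 CPM (log2 fold change 1.48, edgeR adjusted p = 4.14e-06). *Akr1c12*, *Akr1c14* and *Akr1c13*, which are close paralogs, fell by 0.65, 0.92 and 0.53 on the log2 scale, and how reads were split among them was not examined.

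Of 18 tested formaldehyde and folate genes, the surroundings of *Adh5* and *Aldh1l1*, 3 were called higher and 4 lower. Their median log2 fold change was 0.10, and -0.05 with total counts alone. *Ftcd*, a folate enzyme of histidine breakdown, fell from 319 ± 51.7 to 129 ± 39.9 CPM (log2 fold change -1.31, edgeR adjusted p = 0.000474), and *Dld* and *Mthfd1* fell by 0.40 and 0.37 on the log2 scale. *Esd*, which completes the formaldehyde step begun by ADH5, was higher by 0.36 on the log2 scale (edgeR adjusted p = 0.0312) and by 0.20 with total counts alone, where it was not called.

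Of 11 tested tryptophan and kynurenine genes, the pathway of *Aldh8a1*, 9 were called lower and 1 higher, and the middle of their log2 fold changes (median) was -0.67. *Tdo2*, which opens the pathway, fell from 964 ± 121 to 252 ± 42.9 CPM (log2 fold change -1.93, edgeR adjusted p = 1.08e-06). *Aadat* and *Kmo* fell by 1.80 and 1.62 on the log2 scale. *Kyat3*, a kynurenine aminotransferase, was the 1 gene that rose, from 85.3 ± 33.7 to 287 ± 37.9 CPM. The interval of *Aldh8a1* given above, on the log2 scale, did not reach the size of the *Tdo2* change.

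Of 12 tested fatty aldehyde, ether lipid and phytol genes, which feed or surround *Aldh3a2*, 6 were called lower and 1 higher, and the middle of their log2 fold changes (median) was -0.27. With total counts alone none was higher and the median was -0.43. *Slc27a2*, a fatty acyl-CoA synthetase, fell from 1571 ± 69.7 to 622 ± 48.6 CPM (log2 fold change -1.34, edgeR adjusted p = 2.90e-06). *Phyh*, the first enzyme of phytanic acid breakdown, and *Amacr* fell by 1.30 and 0.90 on the log2 scale. *Hacl1* was higher by 0.53 on the log2 scale (edgeR adjusted p = 0.0138), and with total counts alone it was not called (0.37).

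**Figure D5:**
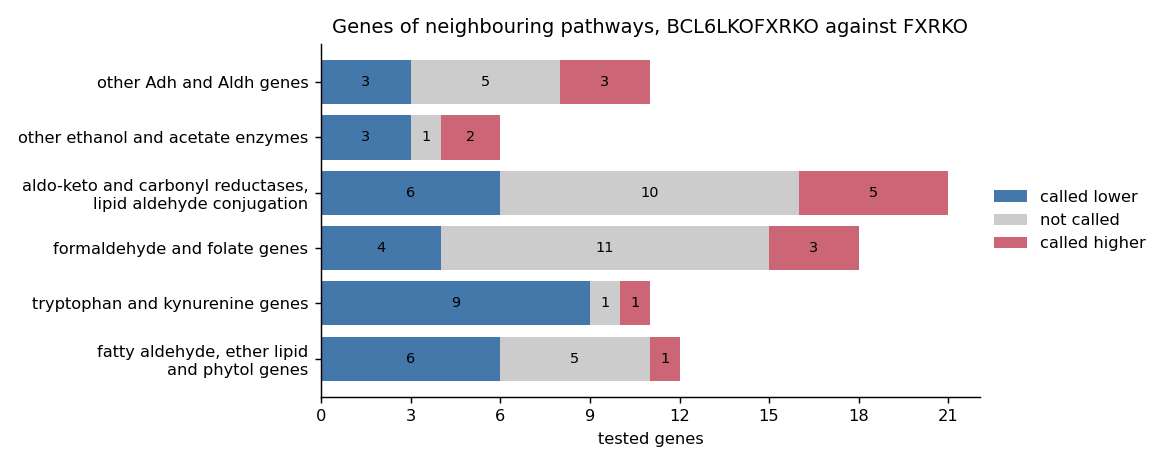
Number of tested genes (x axis) called lower, not called and called higher in BCL6LKOFXRKO livers at an adjusted p under 0.05, for 6 lists of genes around the 10 dehydrogenases. Lower calls outnumber higher ones by 9 to 1 in the tryptophan list and by 6 to 1 in the fatty aldehyde list. The other 4 lists are mixed. Over all tested genes 16.2% were called higher and 13.5% lower.

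Markers of other cells and of liver zones were counted in the same way, beside the 16.2% of all tested genes called higher and 13.5% called lower. Of 10 stellate cell and fibroblast markers 7 were called higher, and 6 with total counts alone. Their sum was 308 to 418 CPM in FXRKO and 608 to 679 CPM in BCL6LKOFXRKO livers. Of 8 tested cholangiocyte markers 3 were called higher (sums of 87.4 to 128 and 133 to 263 CPM), of 10 macrophage markers 2 (344 to 477 and 427 to 758 CPM, and 1 with total counts alone) and of 10 endothelial markers 3 (197 to 274 and 265 to 347 CPM, and 2 with total counts alone). Of 10 pericentral markers 7 were not called, *Slc1a2* and *Rhbg* were called higher and *Cyp2e1* lower. Their sums were 12928 to 17651 and 5043 to 7982 CPM, and the fall of *Cyp2e1* given above makes up most of that difference. With total counts alone 2 pericentral markers were higher and 2 lower. Of 10 periportal markers 7 were not called, none was called higher and 3 were called lower (7569 to 10878 and 5646 to 6893 CPM), and with total counts alone 7 were lower. No marker of these 6 lists was at 0 in every liver. Their part in the values of the dehydrogenase genes was not tested.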

How the data were processed

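RNA of 8 livers was sequenced with a stranded poly(A) kit as 100 bp single-end reads. The authors used STAR 2.5.2 and the mm10 genome, kept uniquely placed reads of up to 4 mismatches, and deposited raw exon counts made with HOMER 4.10, which represents a gene by 1 transcript. The header names no strand option, so reads of antisense partners may be included. Such partners overlap 3.15% to 9.12% of the exonic bases of *Adh1*, *Adh7*, *Aldh2* and *Aldh1l1* in GENCODE M21.

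Counts were fitted in R 4.3.3 with edgeR 4.0.16 (filterByExpr, TMM, robust quasi-likelihood), which tested 12340 genes, and the fit was tested on simulated data. CPM used TMM factors and RPKM the deposited transcript length. The genes and lists were chosen with earlier results of these data known. From each of the 6 pathway lists (not the marker lists), up to 3 genes per direction with the smallest adjusted p and a mean count of at least 50 were named, except 1 that is not reported here. Exact permutation tests were two-sided over 70 orderings, with no p under 0.0286 possible. Livers are taken as separate animals from their labels. Alternatives were DESeq2 1.42.0, limma 3.58.1 (voom with quality weights), other scalings and filters, and each liver left out. Promoters are from RefSeq (GRCm38.p6), and windows and coding identities from GENCODE M21 transcripts.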

Additional observations from a re-analysis of the deposited data

Results flagged for a closer look

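In 4 of the 20 groups of 4 livers (10 genes in 2 genotypes) 1 liver stood apart from the other 3, beside about 1 expected by chance. Its distance from the closest liver, as a share of the group's range, was past Dixon's 95% critical value. That share was 0.927 for *Adh1* in BCL6LKOFXRKO liver 4, at 3248 CPM against 2684 to 2725 in the others. It was 0.868 for *Adh5* in BCL6LKOFXRKO liver 2, at 310.2 CPM, and 0.883 for *Adh7* in BCL6LKOFXRKO liver 3, at 6.82 CPM. It was 0.872 for *Aldh1b1* in FXRKO liver 3, at 92.1 CPM against 84.6 to 85.5 in the others. The 4 values came from 4 different genes and 4 different livers.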

How the results depend on the processing

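Over 15 alternatives for each of the 10 genes, 130 of 150 log2 fold changes kept direction and call, 14 lost the call, 6 gained it and 0 changed sign. *Aldh1b1*, *Aldh1a7* and *Adh4* were called in all 15 alternatives, at log2 fold changes of 2.05 to 2.29, 1.66 to 1.87 and -1.44 to -1.20. With total counts alone, which lowers all log2 fold changes alike, *Adh1* (0.24) was not called and *Aldh2* (-0.46), *Aldh1l1* (-0.43) and *Aldh8a1* (-0.34) were. Thus 5 genes were lower in BCL6LKOFXRKO livers in place of 2. Calls over the whole table moved the same way, with 32.3% of all called genes higher by total counts alone and 54.5% by TMM. Without a filter on low counts *Adh1* (0.37) was not called at an adjusted p of 0.0588. With limma voom *Aldh1l1* (-0.34) and *Aldh2* (-0.40) were called, giving 4 lower genes, and the cause was not tested. Leaving out single livers gave 2 to 3 higher and 1 to 3 lower genes. The log2 fold changes ran from 0.32 to 0.45 for *Adh1*, from -0.53 to -0.36 for *Adh7* and from -0.46 to -0.23 for *Aldh2*. DESeq2, RLE size factors, leaving out the 50 most counted genes in normalization and a minimum of 10 counts in every liver each gave 3 higher and 2 lower genes. No paired analysis was possible because the labels give no shared replicate numbers. *Adh7* had the fewest counts of the 10 genes, 63 to 136 per liver.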

Other observations

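These genes were chosen after their values were seen. *Adh6-ps1*, a transcribed pseudogene between *Adh1* and *Adh4* (chromosome 3 from 138374121 to 138388291), was at 22.3 to 35.2 CPM in FXRKO and 10.5 to 15.7 CPM in BCL6LKOFXRKO livers. Its log2 fold change of -1.26 (edgeR adjusted p = 0.000145) is given beside the -1.28 of *Adh4*, the next gene of the row. *Adh6a*, between *Adh1* and *Adh6-ps1*, had at most 1 count in any liver. *Aldh3b3* had 3, 0, 0 and 0 counts in FXRKO livers 1 to 4 and 60, 63, 47 and 63 counts in BCL6LKOFXRKO livers 1 to 4, so that a gene at or near 0 in 1 genotype was counted in every liver of the other.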
